A study of Mus musculus with 22 samples.

Results

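The addition of an antibody against PD-L1 to the BET inhibitor JQ1 was examined in the CD45-negative cells of EMT-6 mouse mammary tumours. Genes with an FPKM (fragments per transcript length, scaled to the mapped fragments of the library) of at least 1 in 2 or more of the 12 CD45-negative libraries were included, which left 10780 of the 24353 gene symbols of the table. The 2 libraries of JQ1 with anti-PD-L1 were set against the 2 libraries of JQ1, so that 4 of the 22 RNA libraries of the series entered the main comparison. The JQ1 with anti-PD-L1 group received JQ1 at 50 mg/kg by gavage every day and an anti-PD-L1 antibody at 10 mg/kg by intraperitoneal injection 2 times per week. The JQ1 group received JQ1 at 50 mg/kg by daily gavage, and a control antibody for this group was not given in the sources used here. All groups were wild-type BALB/c mice, 5 to 6 weeks old when 200000 EMT-6 cells were placed in both inguinal mammary fat pads, and treatment began once tumours could be felt, usually 5 to 7 days later. Other CD45-negative groups were used for context: JQ1, paclitaxel and anti-PD-L1 together (3 libraries, the 3-drug group), JQ1 with paclitaxel (3 libraries, paclitaxel at 10 mg/kg) and vehicle (2 libraries). Leukocytes were removed from dissociated tumours with anti-CD45 beads, and the unbound cells, enriched for tumour cells, gave the CD45-negative RNA.

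PD-L1, encoded by Cd274, is a surface protein of tumour and myeloid cells that restrains T cells by binding their receptor PD-1, and antibodies against it release that restraint. JQ1 occupies the bromodomains of BET proteins such as BRD2, displaces them from acetylated chromatin and lowers transcription of many inducible genes. Cells exposed to BET inhibitors are known to raise Hexim1, Brd2 and several histone genes, and inflammatory and interferon-stimulated genes are among those that BET inhibitors are known to lower. EMT-6 is a transplantable mammary carcinoma line of BALB/c mice.

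The CD45-negative libraries held the keratin and stromal transcripts of a mesenchymal carcinoma together with some leukocyte RNA. Krt8, an epithelial keratin, had 341 and 449 FPKM in JQ1 with anti-PD-L1, against 278 and 333 FPKM in JQ1. Ptprc, which encodes CD45, had 8.05 and 4.75 FPKM in JQ1 with anti-PD-L1, against 4.24 and 2.41 FPKM in JQ1, while the CD45-positive cells of these tumours had 49.4 and 46.2 FPKM in JQ1 with anti-PD-L1, against 73.2 and 51.2 FPKM in JQ1. All 13 pan-leukocyte genes were detected, and their summed level was 431 and 294 FPKM in JQ1 with anti-PD-L1, against 247 and 167 FPKM in JQ1. Most T cell and B cell markers were too low to be tested (6 of 19 and 2 of 10 were kept), and Pax5 of B cells and Myh1 of muscle were at 0 in all 4 libraries. In bulk RNA, fewer cells of a type and less RNA per cell cannot be told apart.

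FPKM carry no read totals, but the steps between low values gave relative depths of 1.39 and 1.02 for JQ1 with anti-PD-L1, against 0.554 and 0.653 for JQ1, on a scale where the typical library is 1. The libraries of JQ1 with anti-PD-L1 were therefore deeper than those of JQ1. Replicates correlated across genes at 0.983 (JQ1 with anti-PD-L1) and 0.978 (JQ1), and libraries of different groups at 0.949 to 0.961. Both libraries of each compared group carry 1 shared code in their names, followed by R or L. If that code is the mouse, then each compared group is 1 mouse with 2 tumours, and treatment and mouse cannot be told apart. In the groups that received paclitaxel, every library carries a code of its own. The first part of the code is never shared between groups, with or without paclitaxel, so it cannot be told apart from treatment. The p-values come from a model over all CD45-negative libraries, so they measure a mixture of the spread within codes and between codes. A fit with 1 value per code takes its spread from the groups with paclitaxel alone.

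Antibody added to JQ1 was accompanied by higher transcripts of some myeloid cytokines, chemokines, lectins and type I interferon response genes and by lower transcripts of many histone genes, some immediate early genes and Brd2. In limma, 368 genes were higher and 261 were lower at a Benjamini-Hochberg adjusted p under 0.05, out of 10780 tested (3.41% higher, 2.42% lower, 5.83% in all). All 629 called genes had libraries that did not overlap between the groups, where 28.9% of all genes were higher and 25.2% lower without overlap. An absolute log2 difference of at least 1 was seen for 216 of the higher and 97 of the lower genes. The median difference over all genes was 0.04 on the log2(FPKM + 1) scale used throughout, which understates the change of genes of low level. Of the calls, 58.5% were higher, but after quantile normalization 349 genes were higher (3.24%) and 442 lower (4.1%).

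The number of calls rested on single libraries and on depth. It was 186 without JQ1 with anti-PD-L1 replicate 1, 37 without its replicate 2, 60 without JQ1 replicate 1 and 192 without JQ1 replicate 2. With relative depth as a covariate it was 303 (2.14% of all genes higher, 0.668% lower), with the pan-leukocyte level as a covariate 2.79% of all genes were higher, and with 1 value per code 4 (2 higher, 2 lower). In every one of the 4 fits that left out 1 compared library, 18 genes kept their call (12 higher, 6 lower), and all 18 also kept it with depth or with the pan-leukocyte level as a covariate. Among the named genes these were Ccl12, Clec4n, Clec4d, Clec4a2, Clec4a3, Ifit3, Il33, Habp4, Hist1h2bc, Hist1h2bg and Hist2h2aa1.

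**Figure D1:**
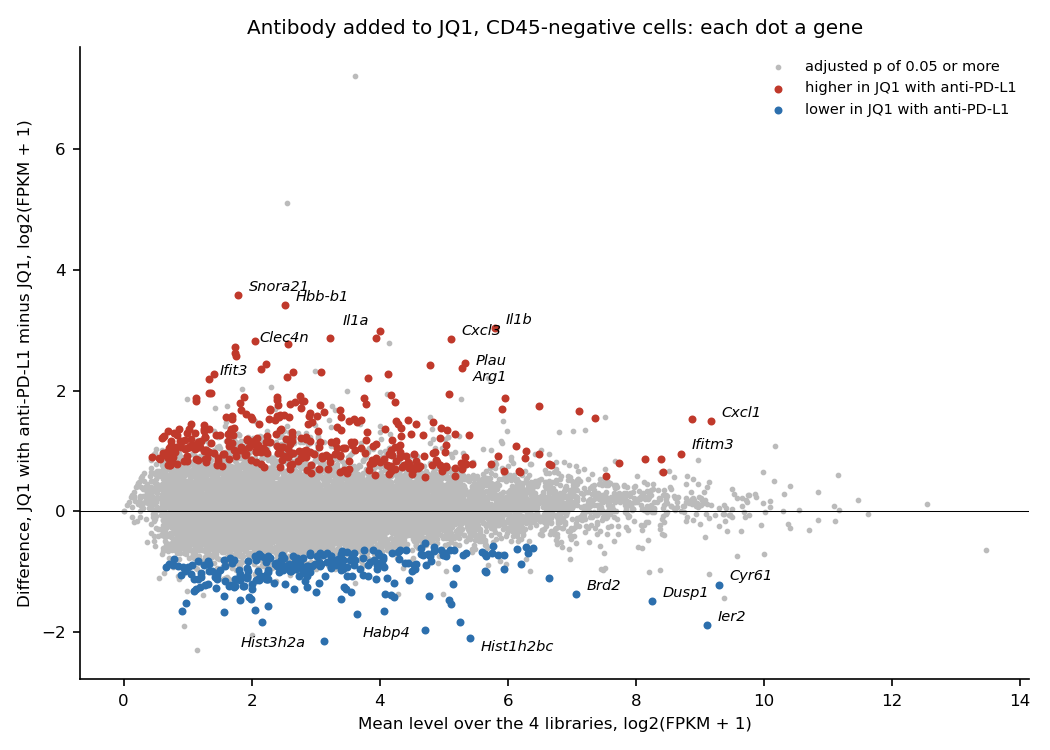
Difference of each of the 10780 genes (JQ1 with anti-PD-L1 minus JQ1, log2(FPKM + 1), vertical axis) against its mean level over the 4 libraries (horizontal axis). Red dots are the 368 genes higher and blue dots the 261 genes lower at an adjusted p under 0.05 in limma, and grey dots are all others, among them a few short RNAs with large differences and large errors.

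The interleukin 1 family held several of the highest differences. Il1b, the secreted inflammatory cytokine, had 131 and 194 FPKM in JQ1 with anti-PD-L1, against 17.9 and 19.2 FPKM in JQ1. The groups were far apart, and the difference was 3.04 ± 0.58 (log2, SE; limma adjusted p 0.013). Il1a, its relative that is also released from damaged cells, had 34.5 and 56.8 FPKM in JQ1 with anti-PD-L1, against 3.35 and 6.47 FPKM in JQ1 (2.99 ± 0.53, limma adjusted p 0.0117). Il1rn, the antagonist of the same receptor, moved the same way, with 10.3 and 20.3 FPKM in JQ1 with anti-PD-L1, against 1.05 and 1.5 FPKM in JQ1 (2.78 ± 0.49, limma adjusted p 0.0114). Il33, an alarmin of the same family made by stromal and epithelial cells, had 14.2 and 14.8 FPKM in JQ1 with anti-PD-L1, against 3.78 and 4.2 FPKM in JQ1 (1.64 ± 0.21, limma adjusted p 0.00333). Il33 stayed below the 38.2 and 40 FPKM of vehicle, whereas Il1b, with 76.1 and 54.2 FPKM in vehicle, lay above it. In the 4 fits that left out a compared library, Il33 kept its call each time. Il1b kept its call only without JQ1 with anti-PD-L1 replicate 1. Il1a and Il1rn kept theirs only without that library or without JQ1 replicate 2. Of 14 inflammatory cytokines tested, 4 were called higher and none lower, with a median difference of 1.21. That count was 4 without JQ1 with anti-PD-L1 replicate 1, 1 without its replicate 2, 1 without JQ1 replicate 1 and 3 without JQ1 replicate 2.

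In other tumours of the series, Il1b, Il1a and Il1rn were at least 2-fold higher in CD45-positive than in CD45-negative cells, and Il33 was at least 2-fold lower. In the CD45-positive cells of the same tumours, Il1b had 1152 and 1976 FPKM in JQ1 with anti-PD-L1, against 1202 and 512 FPKM in JQ1, so the groups overlapped there. Il33 had 0.0931 and 0.461 FPKM in CD45-positive JQ1 with anti-PD-L1, against 0.32 and 0.376 FPKM in CD45-positive JQ1.

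Several chemokines that draw neutrophils rose as well. Cxcl3, a ligand of the receptor CXCR2, had 110 and 75.9 FPKM in JQ1 with anti-PD-L1, against 9.83 and 14.2 FPKM in JQ1 (2.85 ± 0.43, limma adjusted p 0.00687). Cxcl1, another CXCR2 ligand and among the most abundant called genes, had 992 and 937 FPKM in JQ1 with anti-PD-L1, against 290 and 402 FPKM in JQ1, and 1162 and 978 FPKM in vehicle (1.5 ± 0.29, limma adjusted p 0.0138). The values of Cxcl1 in JQ1 with anti-PD-L1 thus lay next to those of vehicle, those of Cxcl3 above its 25 and 20 FPKM in vehicle. Il34, a ligand of the macrophage receptor CSF1R, had 3.19 and 5.5 FPKM in JQ1 with anti-PD-L1, against 1.41 and 1.71 FPKM in JQ1. Of 9 neutrophil chemokines and growth factors, 5 were called higher and none lower (median 1.49). The count was 2 without JQ1 with anti-PD-L1 replicate 1, 1 without its replicate 2, 0 without JQ1 replicate 1, 2 without JQ1 replicate 2 and 1 with depth as a covariate. Transcripts of neutrophils themselves were called for 2 of 10 tested genes (median 0.86): S100a8, a calcium-binding alarmin, had 36.4 and 32.4 FPKM in JQ1 with anti-PD-L1, against 12.4 and 6.63 FPKM in JQ1, while Ly6g, a defining neutrophil marker too low to be tested, had 0 and 0.435 FPKM in JQ1 with anti-PD-L1, against 0.798 and 0 FPKM in JQ1. The other called gene of that list, Clec4d, is described with the lectins.

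Several chemokines that attract monocytes and T cells were also higher. Ccl12, a CCR2 ligand of mice, had 45.1 and 36.5 FPKM in JQ1 with anti-PD-L1, against 6.87 and 3.08 FPKM in JQ1, and 19.7 and 20.9 FPKM in vehicle (2.88 ± 0.33, limma adjusted p 0.00134). Ccl7, a further CCR2 ligand, had 308 and 194 FPKM in JQ1 with anti-PD-L1, against 80.6 and 72.1 FPKM in JQ1 (1.67 ± 0.27, limma adjusted p 0.00826). Ccl6, a myeloid chemokine found in rodents, had 183 and 146 FPKM in JQ1 with anti-PD-L1, against 41.9 and 54.6 FPKM in JQ1 (1.75 ± 0.35, limma adjusted p 0.016). Ccr2, the receptor that marks inflammatory monocytes, was nearly absent from JQ1, with 4.71 and 1.97 FPKM in JQ1 with anti-PD-L1, against 0.133 and 0.188 FPKM in JQ1 (1.83 ± 0.32, limma adjusted p 0.0104). Of 14 monocyte and T cell chemokines, 6 were called higher and none lower, with a median of 1.10. That count was 1 without JQ1 with anti-PD-L1 replicate 1, 2 without its replicate 2, 2 without JQ1 replicate 1 and 2 without JQ1 replicate 2.

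C-type lectins of myeloid cells, which bind microbial and cellular sugars, were among the most stable calls. Clec4n, which encodes Dectin-2, had 27.8 and 21.2 FPKM in JQ1 with anti-PD-L1, against 2.24 and 2.68 FPKM in JQ1 (2.87 ± 0.41, limma adjusted p 0.00568). Clec4d, its relative on monocytes and neutrophils, had 12.9 and 13 FPKM in JQ1 with anti-PD-L1, against 1.81 and 1.86 FPKM in JQ1 (2.30 ± 0.25, limma adjusted p 0.00102). Both replicates of each group lay close together, and each lectin kept its call in all 4 fits without a compared library. Clec4a2 and Clec4a3 were higher by 1.97 ± 0.25 and 2.62 ± 0.35, and as neighbouring copies of similar sequence they may share reads. Of 14 Fc receptors and myeloid lectins, 7 were called higher and none lower (median 1.3). With each compared library left out the count was 4 (JQ1 with anti-PD-L1 replicate 1), 4 (its replicate 2), 5 (JQ1 replicate 1) and 4 (JQ1 replicate 2), and with the pan-leukocyte level as a covariate it was 4.

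Some macrophage transcripts were called higher, beside 3.41% of all genes. Of 22 macrophage and monocyte genes, 3 were called higher (Ccr2, Ly6c2 and Fcgr1) and 21 differences were above 0, with a median of 0.78. The summed level of the 22 was 4143 and 3186 FPKM in JQ1 with anti-PD-L1, against 2650 and 1640 FPKM in JQ1. Fcgr1, the high-affinity IgG receptor, had 8.24 and 4.06 FPKM in JQ1 with anti-PD-L1, against 1.63 and 1.11 FPKM in JQ1 (1.54 ± 0.39, limma adjusted p 0.0357). Among 13 genes of alternatively activated and resident macrophages, 5 were called higher (median 1.05). Arg1, which consumes arginine, had 101 and 76.7 FPKM in JQ1 with anti-PD-L1, against 16.3 and 16.1 FPKM in JQ1 (2.37 ± 0.40, limma adjusted p 0.00976). Pf4, a chemokine of platelets and resident macrophages, had 165 and 83 FPKM in JQ1 with anti-PD-L1, against 27.7 and 35.5 FPKM in JQ1, and Il10, the anti-inflammatory cytokine, had 6.97 and 19.4 FPKM in JQ1 with anti-PD-L1, against 1.86 and 1.57 FPKM in JQ1. The 5 calls were reduced to 1 without JQ1 with anti-PD-L1 replicate 1, 1 without its replicate 2, 0 without JQ1 replicate 1, 1 without JQ1 replicate 2 and 1 with the pan-leukocyte covariate. The 3 macrophage calls became 0 without JQ1 with anti-PD-L1 replicate 1, 2 without its replicate 2, 0 without JQ1 replicate 1 and 1 without JQ1 replicate 2, and 10 with depth as a covariate.

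The share of leukocyte RNA moved with these myeloid groups. All 13 pan-leukocyte genes had a difference above 0 (median 0.72), against 53.7% of all genes, yet none of the 13 was called, and Ptprc differed by 0.77 ± 0.45 (limma adjusted p 0.331). With the pan-leukocyte level as a covariate the median of the macrophage list was 0.02, that of the monocyte and T cell chemokines 0.98, that of the inflammatory cytokines 1.32 and that of the lectins 0.92. Genes were also classed by 6 tumours of the other groups for which both fractions were sequenced. Of 982 genes at least 2-fold higher in CD45-positive cells, 95 (9.67%) were called higher and 9 (0.916%) lower, with a median of 0.33. Of 2127 genes at least 2-fold higher in CD45-negative cells, 106 (4.98%) were called higher and 37 (1.74%) lower, with a median of 0.15. Of the 7671 genes between, 167 (2.18%) were called higher and 215 (2.8%) lower, with a median of -0.01. Both enriched classes thus leaned higher. Most lower calls fell among the genes between, but these were 7671 of the 10780 genes. Their 2.8% lay near the 2.42% of all genes called lower.

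**Figure D2:**
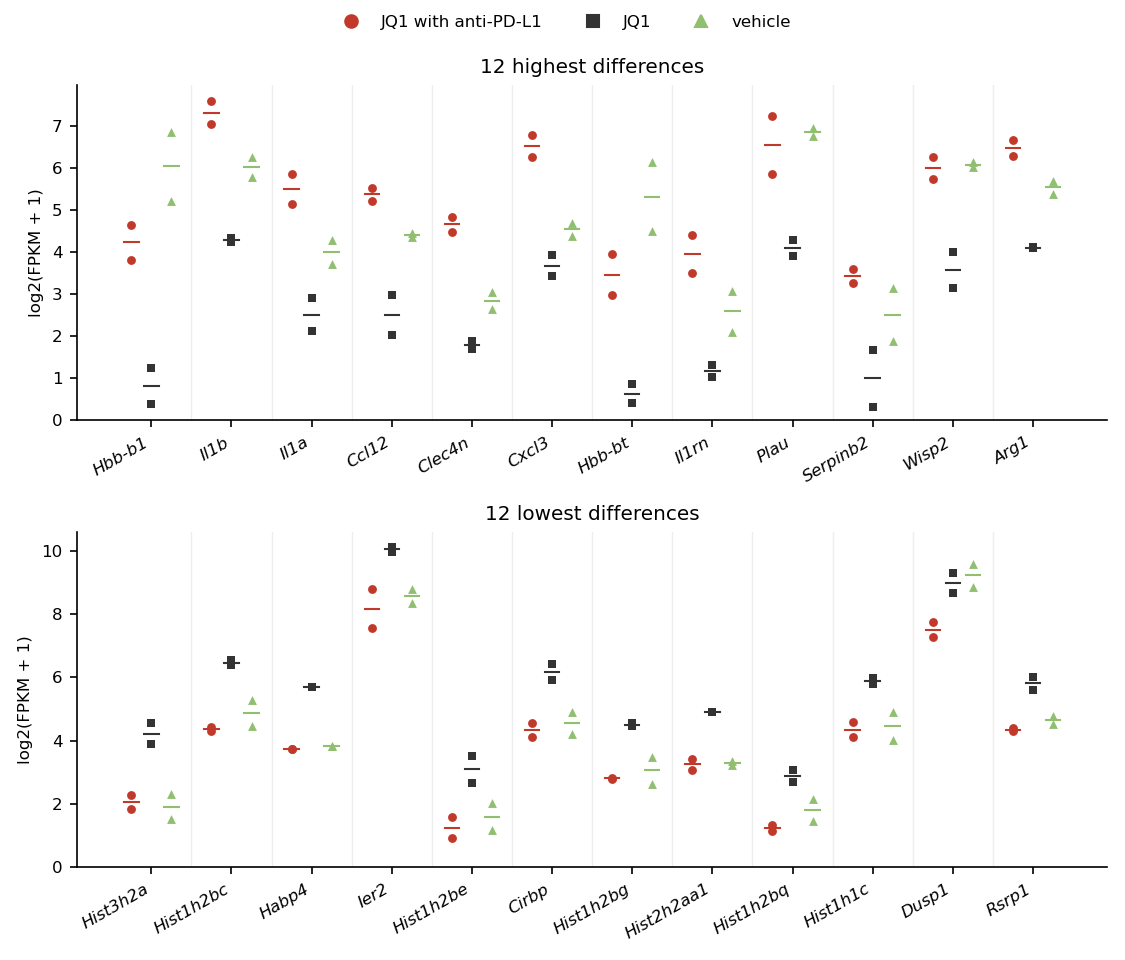
Level in each library of the 12 highest (upper panel) and 12 lowest (lower panel) called differences among genes with a mean log2(FPKM + 1) of at least 2, log2(FPKM + 1), with red circles for JQ1 with anti-PD-L1, black squares for JQ1, green triangles for vehicle and a line at each mean of 2. Genes were chosen without overlap between red circles and black squares. The red circles therefore lie above the black squares throughout the upper panel and below them throughout the lower one. For Habp4 and Hist2h2aa1 the red circles lie next to the triangles of vehicle.

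Single genes of matrix turnover, stroma and epithelium were also called higher, and bulk RNA does not give their cells of origin. Plau, the urokinase that activates plasminogen, had 57.4 and 150 FPKM in JQ1 with anti-PD-L1, against 14.1 and 18.6 FPKM in JQ1, and 107 and 124 FPKM in vehicle (2.45 ± 0.47, limma adjusted p 0.0144), and Serpinb2, an inhibitor of urokinase, had 8.68 and 11.1 FPKM in JQ1 with anti-PD-L1, against 0.251 and 2.2 FPKM in JQ1. Wisp2, a matricellular protein of the CCN family, had 52.4 and 76.1 FPKM in JQ1 with anti-PD-L1, against 15.1 and 7.82 FPKM in JQ1 (2.43 ± 0.39, limma adjusted p 0.008), and in CD45-positive cells it had at most 2.63 FPKM in these tumours. Trp63, a transcription factor of basal epithelium, had 1.03 and 1.97 FPKM in JQ1 with anti-PD-L1, against 0.39 and 0.116 FPKM in JQ1, and 4.44 and 4.26 FPKM in vehicle (0.98 ± 0.23, limma adjusted p 0.0305). Pdgfra, a receptor for platelet-derived growth factor on fibroblasts, differed by 0.90 ± 0.24, Mmp19, a matrix metalloproteinase, by 1.05 ± 0.19 and Zeb2, a repressor of epithelial genes, by 1.09 ± 0.28. These were single calls in their lists: 1 of 18 fibroblast genes (median 0.63), 1 of 14 metalloproteinases and inhibitors (0.45), 1 of 16 mesenchymal transition genes (0.36) and 1 of 10 epithelial genes (0.31) were called higher. None of 15 collagen, 11 endothelial, 7 pericyte or 9 smooth muscle genes was called. Single calls, beside 3.41% of all genes called higher, are no result about these lists. Pdgfra and Zeb2 were called in none of the 4 fits that left out a compared library, Mmp19 only without JQ1 replicate 1, Trp63 only without JQ1 with anti-PD-L1 replicate 1. With depth as a covariate Mmp19 alone of these 4 was called. Plau was called only without JQ1 with anti-PD-L1 replicate 1, Serpinb2 only without JQ1 replicate 2, and neither with depth as a covariate, while Wisp2 lost its call only without JQ1 with anti-PD-L1 replicate 2.

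Of 27 type I interferon response genes tested, 9 were called higher and none lower, 25 differences were above 0 and the median was 0.64. Ifit3, a cytoplasmic antiviral protein with a near-identical neighbouring copy, had 3.54 and 5.48 FPKM in JQ1 with anti-PD-L1, against 0.124 and 0.245 FPKM in JQ1, and 2.86 and 3.49 FPKM in vehicle. Both JQ1 libraries lay below those of JQ1 with anti-PD-L1 and vehicle, and the difference was 2.20 ± 0.23 (limma adjusted p 0.000856). Ifitm3, which blocks viral entry, had 559 and 607 FPKM in JQ1 with anti-PD-L1, against 282 and 318 FPKM in JQ1, and 596 and 571 FPKM in vehicle (0.96 ± 0.16, limma adjusted p 0.00976). Oasl2, of the oligoadenylate synthase family, had 6.7 and 6.68 FPKM in JQ1 with anti-PD-L1, against 2.65 and 2.6 FPKM in JQ1, and 5.48 and 4.43 FPKM in vehicle (1.08 ± 0.20, limma adjusted p 0.0125). Isg15, a ubiquitin-like modifier named after its value was seen, had 50.2 and 41.6 FPKM in JQ1 with anti-PD-L1, against 14 and 25.7 FPKM in JQ1 (1.22 ± 0.25, limma adjusted p 0.0173). The group count was 2 without JQ1 with anti-PD-L1 replicate 1, 1 without its replicate 2, 1 without JQ1 replicate 1, 4 without JQ1 replicate 2 and 4 with depth as a covariate, while it was 8 with the pan-leukocyte covariate.

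Interferon gamma response genes and antigen presentation genes had medians at or below 0. Of 17 interferon gamma response genes, 1 was called (median -0.03): Cxcl10, a T cell chemokine, had 16.1 and 17 FPKM in JQ1 with anti-PD-L1, against 7.27 and 6.51 FPKM in JQ1 (1.15 ± 0.3, limma adjusted p 0.039). Cxcl10 was not called in any of the 4 fits without a compared library, nor with depth or the pan-leukocyte level as a covariate. None of 14 MHC class I genes (median -0.04) and none of 7 MHC class II genes (median -0.18) was called. Cd274 itself had 2.2 and 2.88 FPKM in JQ1 with anti-PD-L1, against 1.62 and 1.78 FPKM in JQ1 (0.39 ± 0.54, limma adjusted p 0.711), and Pdcd1, which encodes PD-1, was too low to be tested. Ifng was at 0 in all 4 libraries. Havcr2 and Tnfrsf9, which encode TIM-3 and 4-1BB, were the only T cell checkpoint genes of 10 listed that could be tested, and both were higher, by 1.08 ± 0.25 and 1.0 ± 0.24, with Cd8a at or under 0.309 FPKM in the same libraries. The 2 calls became 1 without JQ1 replicate 2 and 0 without any other compared library or with depth as a covariate.

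The promoters of interferon-response genes are known to carry elements that bind the ISGF3 and IRF factors. The letters GAAA, followed by any 2 bases and GAAA again, were searched on both strands with overlapping matches counted. They were present in 4 of the 8 called interferon-list genes with a RefSeq promoter (250 bases before to 50 after the start, GRCm38.p6). Of the 33 such genes tested in both lists 21 had a match in any of their promoters, against 3.99% of all 27025 genes with a promoter. The 4 promoters with a match are shown because these genes moved together, with the matches in capitals, either in this form or as the reverse complement (TTTC, any 2 bases, TTTC); overlapping matches run together.
Ifit3, chr19:34583279-34583578, plus strand: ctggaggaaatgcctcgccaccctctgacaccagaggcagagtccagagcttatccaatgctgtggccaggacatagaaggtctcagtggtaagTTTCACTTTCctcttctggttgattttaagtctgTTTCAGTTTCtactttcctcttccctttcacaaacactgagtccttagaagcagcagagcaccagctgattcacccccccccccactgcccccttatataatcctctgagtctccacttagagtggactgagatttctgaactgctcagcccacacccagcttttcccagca
Isg15, chr4:156200769-156201068, minus strand: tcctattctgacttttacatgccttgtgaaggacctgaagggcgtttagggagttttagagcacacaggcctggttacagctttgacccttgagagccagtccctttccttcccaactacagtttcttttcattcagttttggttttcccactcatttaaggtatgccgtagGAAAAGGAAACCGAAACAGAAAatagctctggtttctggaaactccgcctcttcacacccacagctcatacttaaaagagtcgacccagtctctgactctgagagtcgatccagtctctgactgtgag
Ifitm3, chr7:141010695-141010994, minus strand: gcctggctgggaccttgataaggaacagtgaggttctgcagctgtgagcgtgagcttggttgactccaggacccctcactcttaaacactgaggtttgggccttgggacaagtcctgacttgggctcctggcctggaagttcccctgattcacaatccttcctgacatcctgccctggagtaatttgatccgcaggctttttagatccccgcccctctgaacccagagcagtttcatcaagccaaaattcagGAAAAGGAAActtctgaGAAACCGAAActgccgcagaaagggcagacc
Cxcl10, chr5:92348840-92349139, minus strand: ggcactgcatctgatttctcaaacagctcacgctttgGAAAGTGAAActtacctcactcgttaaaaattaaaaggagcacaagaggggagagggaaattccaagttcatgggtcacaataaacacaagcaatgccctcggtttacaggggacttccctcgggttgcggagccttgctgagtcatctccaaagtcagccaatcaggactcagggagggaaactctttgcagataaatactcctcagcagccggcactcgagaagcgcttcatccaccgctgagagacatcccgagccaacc
Ifit3 had matches on the minus strand upstream of its start, Isg15 an overlapping run of 3 upstream, Ifitm3 a pair within the 50 bases after its start and Cxcl10 a single one upstream. Oasl1, Oasl2, Ifi44 and Xaf1 were called without a match in this window. A match describes the letters only, and binding was not measured.

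**Figure D3:**
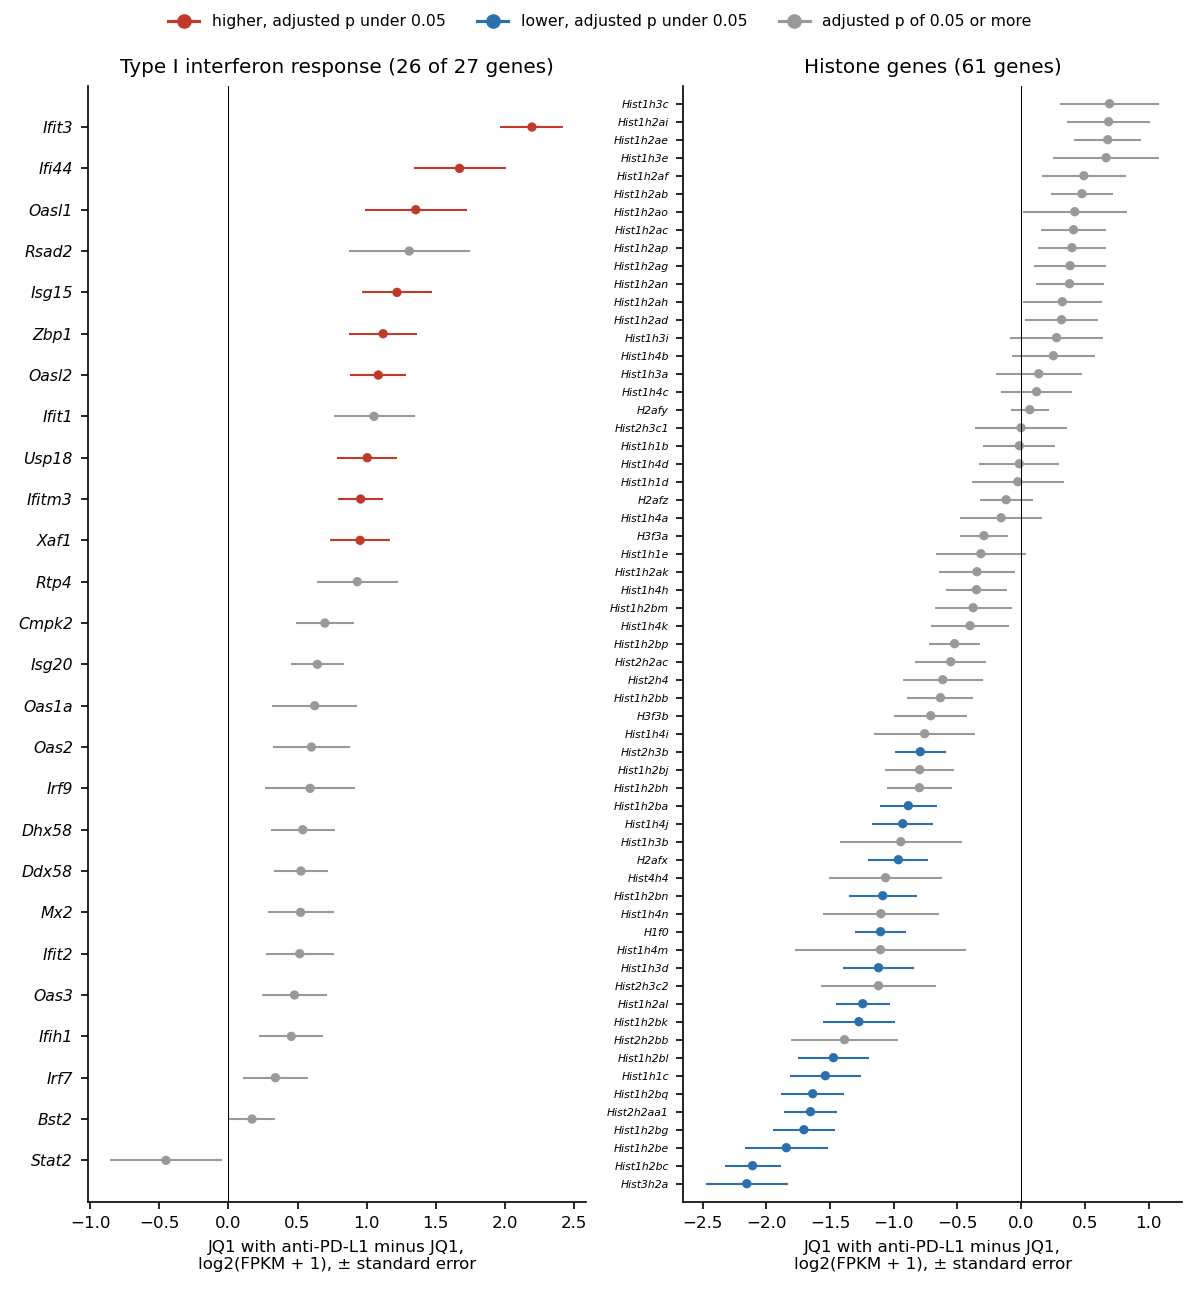
Difference of 26 of the 27 tested members of the type I interferon list (left) and of each of the 61 tested histone genes (right), JQ1 with anti-PD-L1 minus JQ1, log2(FPKM + 1), with bars of 1 standard error. Of the interferon genes 9 are red (called higher) and 25 lie above 0, and of the histone genes 17 are blue (called lower) while 18 lie above 0.

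Histone transcripts were the group with the most lower calls. Of 61 histone genes tested, 17 were called lower and none higher, with a median of -0.52. Hist1h2bc, an H2B gene, had 20.7 and 18.5 FPKM in JQ1 with anti-PD-L1, against 92.6 and 82.8 FPKM in JQ1, and 37.9 and 21.2 FPKM in vehicle. The groups were far apart, with a difference of -2.11 ± 0.22 (limma adjusted p 0.000856). Hist3h2a, an H2A gene, had 2.58 and 3.81 FPKM in JQ1 with anti-PD-L1, against 22.3 and 13.7 FPKM in JQ1 (-2.15 ± 0.32, limma adjusted p 0.00687), and Hist2h2aa1 had 9.69 and 7.4 FPKM in JQ1 with anti-PD-L1, against 28.8 and 28.8 FPKM in JQ1 (-1.65 ± 0.21, limma adjusted p 0.00333). Hist1h1c, a linker histone, had 22.8 and 16.3 FPKM in JQ1 with anti-PD-L1, against 61.5 and 54.4 FPKM in JQ1. The differences of Hist1h2be, Hist1h2bg and Hist1h2bq were -1.84 ± 0.32, -1.71 ± 0.24 and -1.64 ± 0.25. The count of 17 was 10 without JQ1 with anti-PD-L1 replicate 1, 4 without its replicate 2, 3 without JQ1 replicate 1, 10 without JQ1 replicate 2 and 11 with depth as a covariate.

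The histone kinds did not move alike, a division made after the values were seen. All 14 tested H2B genes had differences below 0 and 8 were called lower (median -1.18). Of 19 tested H2A genes, 12 had differences above 0 (median 0.32) and 4 were called lower. Some called H2B genes reached 1 FPKM in JQ1 only, among the compared groups. Hist1h2bk had 0.748 and 0.736 FPKM in JQ1 with anti-PD-L1, against 3.76 and 2.73 FPKM in JQ1. The filter could thus favour H2B genes that were high in JQ1, and H2B genes too low to be tested went both ways. Of 5 H1 genes 2 were called lower (median -0.32), of 11 H3 genes 2 (median -0.29) and of 12 H4 genes 1 (median -0.51). Histone copies are nearly identical in sequence, so single copies are uncertain wherever reads fit more than 1 of them. In CD45-positive cells Hist1h2bc had 34.5 and 26.3 FPKM in JQ1 with anti-PD-L1, against 6.17 and 122 FPKM in JQ1, so the pair of CD45-positive JQ1 libraries stood far apart from each other.

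Of the genes known to rise under BET inhibition, Brd2 was lower when the antibody was added. Brd2, a BET protein, had 130 and 52 FPKM in JQ1 with anti-PD-L1, against 223 and 209 FPKM in JQ1, and 35.8 and 54.2 FPKM in vehicle (-1.38 ± 0.33, limma adjusted p 0.0304). Hexim1, an inhibitor of the elongation kinase P-TEFb, had 2.02 and 1.15 FPKM in JQ1 with anti-PD-L1, against 4.08 and 3.34 FPKM in JQ1, and 0.768 and 1.38 FPKM in vehicle, a difference that just missed the threshold (-0.88 ± 0.24, limma adjusted p 0.051). For both genes, replicate 2 of JQ1 with anti-PD-L1 lay within the range of vehicle and replicate 1 above it. All 9 tested genes of BET proteins and P-TEFb control had differences below 0 (median -0.36), and Brd2 alone was called. Brd2 was not called without JQ1 with anti-PD-L1 replicate 2, JQ1 replicate 1 or JQ1 replicate 2, nor with depth as a covariate. JQ1 exposure at collection was not measured, so an effect of the antibody and a smaller effect of JQ1 in these mice cannot be told apart.

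Habp4, which encodes an RNA-binding protein, had the smallest p of the genes named by rule. It had 12.2 and 12.2 FPKM in JQ1 with anti-PD-L1, against 50.7 and 51.1 FPKM in JQ1, and 13.2 and 13.1 FPKM in vehicle. Both JQ1 libraries lay far above those of JQ1 with anti-PD-L1 and vehicle, with a difference of -1.98 ± 0.14 (limma adjusted p 2.03e-05). Cirbp, a cold-inducible RNA-binding protein, had 22.7 and 16.3 FPKM in JQ1 with anti-PD-L1, against 58.9 and 85.5 FPKM in JQ1, and 28.6 and 17.4 FPKM in vehicle (-1.83 ± 0.31, limma adjusted p 0.00976). Rsrp1, an arginine- and serine-rich protein, had 20 and 18.6 FPKM in JQ1 with anti-PD-L1, against 63.3 and 47.7 FPKM in JQ1 (-1.47 ± 0.27, limma adjusted p 0.0121).

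Immediate early genes, which growth factors and tissue dissociation are known to induce within minutes, mostly had differences below 0. Of 19 tested, 3 were called lower and 2 differences were above 0, with a median of -0.82. Ier2 had 441 and 187 FPKM in JQ1 with anti-PD-L1, against 1128 and 1000 FPKM in JQ1, and 444 and 323 FPKM in vehicle (-1.89 ± 0.42, limma adjusted p 0.0244). Dusp1, a phosphatase that turns off MAP kinases, had 213 and 154 FPKM in JQ1 with anti-PD-L1, against 636 and 410 FPKM in JQ1, and 778 and 461 FPKM in vehicle (-1.49 ± 0.32, limma adjusted p 0.0215). Cyr61, a matricellular protein of the CCN family, had 463 and 366 FPKM in JQ1 with anti-PD-L1, against 968 and 948 FPKM in JQ1 (-1.22 ± 0.22, limma adjusted p 0.0119). Dusp1 in JQ1 with anti-PD-L1 was thus below vehicle as well, whereas Ier2 was at or below it. The 3 calls were 2 without JQ1 with anti-PD-L1 replicate 1, 0 without its replicate 2, 0 without JQ1 replicate 1, 2 without JQ1 replicate 2 and 1 with depth as a covariate.

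Some growth and survival genes were called, beside 3.41% of all genes called higher and 2.42% called lower. A single call in a list is no result about that list. Myc had 46.7 and 75.7 FPKM in JQ1 with anti-PD-L1, against 44.2 and 67.1 FPKM in JQ1 (0.12 ± 0.38, limma adjusted p 0.878). Of 8 MYC network genes 1 was called, Mnt, a MAX-binding repressor, which was higher by 0.92 ± 0.24. Of 22 ribosome biogenesis genes 2 were called higher and 19 differences were above 0 (median 0.44): Srm, spermidine synthase, had 104 and 104 FPKM in JQ1 with anti-PD-L1, against 55.5 and 56.8 FPKM in JQ1 (0.88 ± 0.18, limma adjusted p 0.0191), and Dkc1, a pseudouridine synthase, had 19.2 and 18.1 FPKM in JQ1 with anti-PD-L1, against 9.77 and 10.7 FPKM in JQ1. Of 22 G2/M genes 1 was called, Ube2c, a ubiquitin-conjugating enzyme of mitosis, with 100 and 103 FPKM in JQ1 with anti-PD-L1, against 40.4 and 55.1 FPKM in JQ1, and none of 22 DNA replication genes was called (median 0.05). Of 14 p53 targets, Fas, a death receptor, was higher (0.90 ± 0.21) and Sesn1, a stress-response regulator, lower (-1.19 ± 0.32). Of 11 Bcl2 family genes 3 were called higher: Bak1, a pore former of mitochondria, had 2.11 and 2.34 FPKM in JQ1 with anti-PD-L1, against 0.66 and 0.35 FPKM in JQ1, and Bcl2a1d and Bcl2a1b, myeloid survival genes that may share reads, differed by 1.91 ± 0.38 and 1.49 ± 0.38. The ribosome biogenesis, G2/M and p53 calls were made in none of the 4 fits that left out a compared library, the Mnt call only when replicate 1 of JQ1 with anti-PD-L1 was left out, and of the 3 Bcl2 family calls 1 was left without JQ1 replicate 2 and 0 without each other compared library.

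Beta-globin transcripts gave the highest called difference among genes with a mean log2(FPKM + 1) of at least 2. Hbb-b1 had 24.2 and 13 FPKM in JQ1 with anti-PD-L1, against 0.311 and 1.36 FPKM in JQ1, and 116 and 36.5 FPKM in vehicle (3.42 ± 0.54, limma adjusted p 0.00729), and Hbb-bt had 14.4 and 6.87 FPKM in JQ1 with anti-PD-L1, against 0.323 and 0.821 FPKM in JQ1. Vehicle was the highest group and JQ1 the lowest. Slc4a1, a membrane protein of red cells and their precursors, was at 0 in all 4 libraries, and globin copies share reads: Hba-a1 had 28.7 and 0.0579 FPKM in JQ1 with anti-PD-L1, and Hba-a2 0.0155 and 13.2 FPKM.

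**Figure D4:**
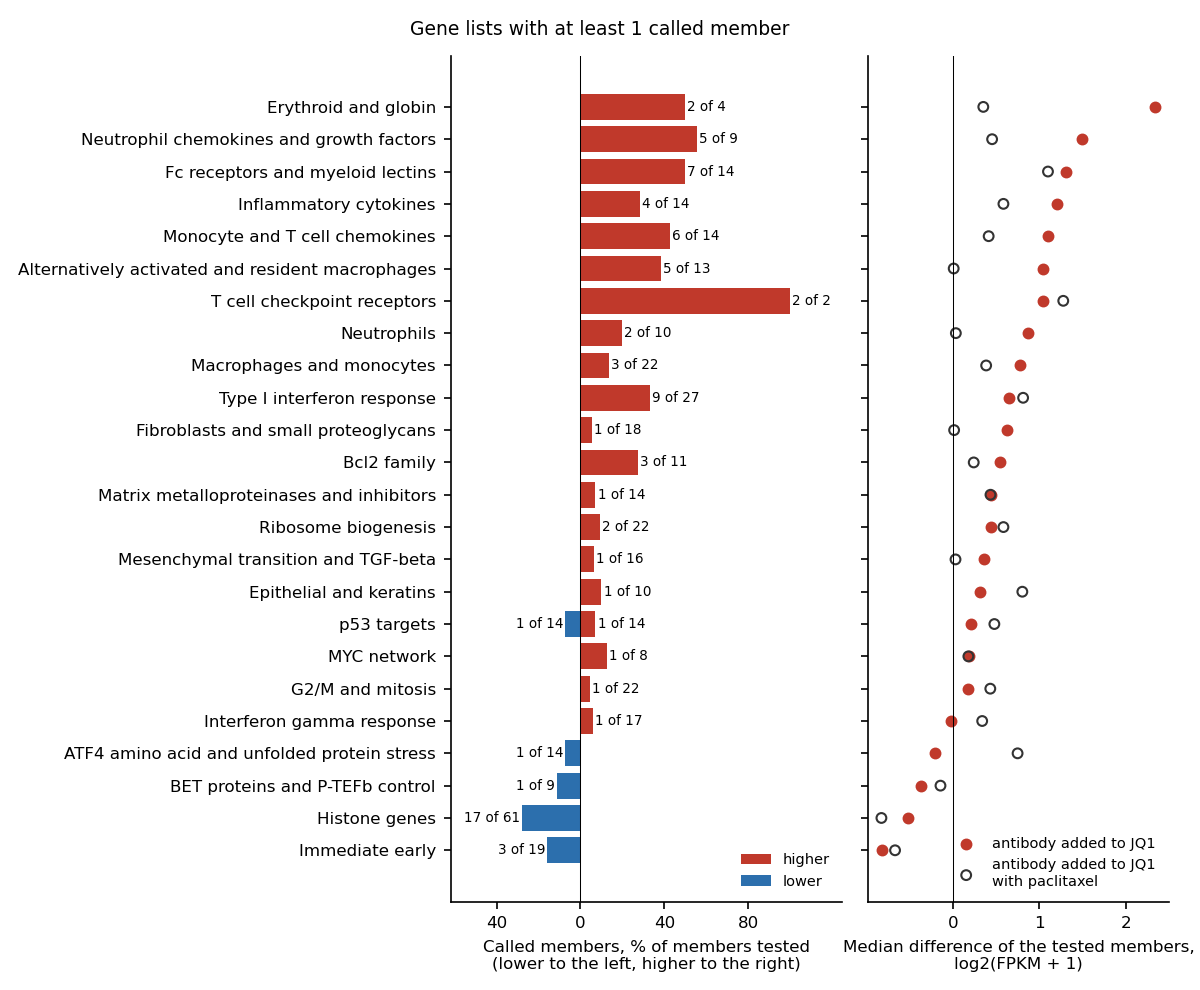
For each gene list with at least 1 called member, the share of tested members called higher (red, to the right) or lower (blue, to the left) in JQ1 with anti-PD-L1 against JQ1 (left panel, with counts), and the median difference of the tested members when the antibody was added to JQ1 (filled) or to JQ1 with paclitaxel (open; right panel, log2(FPKM + 1)). The background is 3.41% of all genes higher and 2.42% lower, and the filled dots run from the immediate early list at -0.82 to the erythroid list at 2.35.

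Set beside vehicle, the called genes of JQ1 with anti-PD-L1 lay on both sides of vehicle, with medians near 0. The 368 higher genes had a median of 0.04 for JQ1 with anti-PD-L1 minus vehicle, and of -1.0 for JQ1 minus vehicle. The 261 lower genes had a median of -0.12 for JQ1 with anti-PD-L1 minus vehicle, and of 0.79 for JQ1 minus vehicle. These comparisons share the JQ1 or the JQ1 with anti-PD-L1 libraries with the main one, so a gene chosen for a low JQ1 value is low against vehicle by the same libraries, and no test was made.

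The antibody was also added to JQ1 with paclitaxel, in tumours that share no library with the main comparison. Both comparisons came from 1 model with the same estimate of spread for each gene, so calls shared between them are not independent. There, 980 genes (9.09%) were higher and 732 (6.79%) lower in the 3-drug group against JQ1 with paclitaxel, with 3 libraries each. Of the 368 genes higher in JQ1 with anti-PD-L1 against JQ1, 232 were also higher with paclitaxel present, which is 63.0% of the 368 and 23.7% of the 980, and none was lower. Of the 261 lower genes, 169 were also lower with paclitaxel present, 64.8% of the 261 and 23.1% of the 732, and 1 was higher. The direction was the same for 347 of the 368 and for 252 of the 261. Medians with paclitaxel were 0.75 for the higher and -0.64 for the lower genes, against 1.07 and -0.92 without it. Across the 10780 genes, which are not independent, the differences correlated with a Pearson r of 0.634 and a Spearman rho of 0.631.

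Several of the genes named above moved by similar amounts with paclitaxel present. Habp4 had 13.9, 14.5 and 13.3 FPKM in the 3-drug group, against 47.3, 40.1 and 42.2 FPKM in JQ1 with paclitaxel (-1.57, limma adjusted p 1.6e-05). Il33 had 19, 11.4 and 15.1 FPKM in the 3-drug group, against 4.91, 3.76 and 4.33 FPKM in JQ1 with paclitaxel (1.58, limma adjusted p 0.000384). Ifit3 had 3.47, 3.04 and 2.19 FPKM in the 3-drug group, against 0.268, 0.251 and 0.377 FPKM in JQ1 with paclitaxel (1.57, limma adjusted p 0.000458). Hexim1, which missed the threshold without paclitaxel, had 1.5, 0.978 and 1.32 FPKM in the 3-drug group, against 3.67, 4.7 and 3.24 FPKM in JQ1 with paclitaxel (-1.10, limma adjusted p 0.00383). In none of these genes did the groups overlap. The share of all genes without overlap was not counted for this comparison, so no weight is given to it. Of 61 histone genes 30 were lower and 4 higher with paclitaxel present (median -0.83), and of 27 type I interferon genes 18 were higher and none lower (median 0.81). Most myeloid lists had smaller medians there than without paclitaxel. These were 0.01 for alternatively activated and resident macrophages, 0.03 for neutrophils and 0.39 for macrophages and monocytes. Monocyte and T cell chemokines had 0.41, neutrophil chemokines and growth factors 0.45 and inflammatory cytokines 0.585. Fc receptors and myeloid lectins, with 1.10, stayed closer to their median without paclitaxel.

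**Figure D5:**
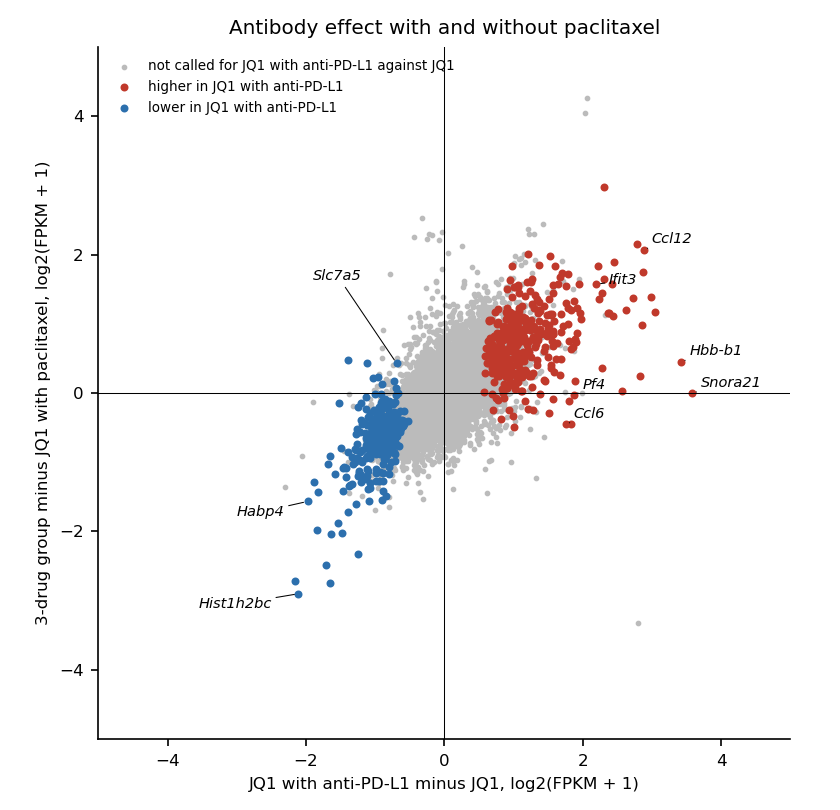
Antibody difference with JQ1 (JQ1 with anti-PD-L1 minus JQ1, horizontal axis) against the antibody difference with JQ1 and paclitaxel (3-drug group minus JQ1 with paclitaxel, vertical axis), both log2(FPKM + 1), 1 dot per gene. Of the red dots 347 of 368 lie above 0 and of the blue dots 252 of 261 lie below 0 on the vertical axis, 2 genes with larger differences and no call lie outside the plotted range, and Snora21, Pf4, Ccl6 and Hbb-b1 lie near 0 on it.

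The difference between these antibody effects was tested directly, and 1 gene of 10780 (0.00928%) was called, with 771 at an unadjusted p under 0.05. That gene, Snora21, a small nucleolar RNA named after its value was seen, had 8.99 and 13.3 FPKM in JQ1 with anti-PD-L1 and was listed at 0 in the other 10 CD45-negative libraries and in the 4 CD45-positive libraries of these tumours, so no fold is given (difference of effects 3.58 on the log2(FPKM + 1) scale). It passed the filter only through the 2 libraries where it was high, so it had to differ and its call supports no difference between the effects. No gene was called in this test with a pseudocount of 0.1 or a filter at 5 FPKM. The median standard error was 0.29 for this test and 0.22 for the main comparison, so smaller differences between the effects may have been missed. Ccl6 differed by 2.21 ± 0.45 between the effects (limma adjusted p 0.214), with 53.2, 40 and 29.1 FPKM in the 3-drug group, against 45.1, 93 and 38.7 FPKM in JQ1 with paclitaxel. S100a8 differed by 1.92 ± 0.38 (limma adjusted p 0.186), with 5.68, 8.13 and 4.37 FPKM in the 3-drug group, against 6.38, 7.18 and 5.91 FPKM in JQ1 with paclitaxel. Neither passed the threshold. Slc7a5, an amino acid transporter, was the 1 gene called in opposite directions: it had 67 and 57.3 FPKM in JQ1 with anti-PD-L1, against 101 and 99.7 FPKM in JQ1 (-0.69 ± 0.15, limma adjusted p 0.0244), and 67.6, 64.9 and 72.4 FPKM in the 3-drug group, against 53.2, 44 and 55.1 FPKM in JQ1 with paclitaxel (0.43, limma adjusted p 0.0379), and its difference of effects was -1.12 ± 0.20 (limma adjusted p 0.162).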

How the data were processed

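RNA was measured in the CD45-negative and CD45-positive cells of mouse EMT-6 tumours. Per the submitters' processing notes, reads were aligned with STAR 2.5.1b to mm9, and per the labels' protocols libraries came from a low-input SMARTer kit. The 2 tables deposited by the authors hold FPKM, a unit read from the values although the table labels speak of counts. The tool that made them is not given in the sources used here. Of 24353 symbols, 23723 matched a current and 553 an older mouse symbol, and no genome coordinates of the files were used. Promoters came from RefSeq (GRCm38.p6).

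Relative depth was read from the steps of 3327 low genes over 66 library pairs (largest residual 0.0019 log2). Read totals are unknown, and errors come from how far libraries of a group lie apart. Genes with FPKM of at least 1 in 2 libraries were fitted as log2(FPKM + 1), with a pseudocount of 1, in 1 limma model with a mean-variance trend over the 12 CD45-negative libraries (7 residual degrees of freedom, 12.8 after moderation), using R 4.3.3 and limma 3.58.1. Contrasts were two-sided, with Benjamini-Hochberg adjustment over all 10780 genes. Count-based tools were not used, since the files hold no counts. Gene classes came from the CD45-positive minus CD45-negative difference in 6 tumours of the other groups, at a log2 threshold of 1. On data simulated for the main comparison over 10780 genes, 56.9% of changes of log2 1 were recovered with 4.37% of calls false, and 96.1% of changes of log2 2 with 5.51% of calls false. The changes were placed only in genes with a mean log2(FPKM + 1) of at least 2. Noise was drawn independently for each library, without shared codes or depth differences. These shares therefore do not cover lower genes, and they leave out the limits of code and depth in the real data.

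Named genes were the 12 highest and 12 lowest called differences with no overlap and a mean log2(FPKM + 1) of at least 2, up to 3 called members of each of 49 lists by p (else the 2 of highest level), and Cd274, Pdcd1, Ptprc, Hexim1, Brd2 and Myc. This gave 60 called genes and 52 without a call, whose differences lay between -0.90 and 2.07. The genes and lists were chosen with earlier results of these data known. Alternatives were a pseudocount of 0.1, other filters, median centring, quantile normalization, no trend, depth, side or pan-leukocyte covariates, 1 value per code, fewer libraries and each library left out. Plots were made with matplotlib 3.10.9 (Python 3.11.15, pandas 2.3.3). A few genes are not reported here.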

Additional observations from a re-analysis of the deposited data

Results flagged for a closer look

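Snora21 was the 1 gene for which the antibody effect with JQ1 differed from the antibody effect with JQ1 and paclitaxel in the limma test of that difference, by 3.58 on the log2(FPKM + 1) scale. It had 8.99 and 13.3 FPKM in JQ1 with anti-PD-L1 and was listed at 0 in the other 10 CD45-negative libraries. Since it passed the filter on low values only through those 2 libraries, its call was fixed by that choice and supports no difference between the effects. With a pseudocount of 0.1 or a filter at 5 FPKM no gene was called in this test.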

How the results depend on the processing

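No paired analysis was possible because the labels give the groups no shared replicate numbers; with tumour side as a covariate, which links no animals across groups, 613 genes were called. The main count of 629 calls moved to 303 (231 higher, 72 lower) with relative depth as a covariate, with 202 of the 629 kept, and to 4 with 1 value per code (Apoc2, Habp4, Hist1h2bc and Snora21). Leaving out 1 library at a time gave 37 to 759 calls. The other alternatives gave 476 (no filter) to 791 (quantile normalization). For the difference of the antibody effects, 1 call became 0 with a pseudocount of 0.1 (752 genes at an unadjusted p under 0.05) or a filter at 5 FPKM (511), 2 without a filter, with median centring or with quantile normalization, and 7 with depth. With 1 library left out it was 1 to 4. Depth was associated with group, so a covariate for it also takes up part of the comparison, and the cause of the other changes was not tested. Leaving out a compared library leaves 1 sample in its group, which is assumed to vary like the others.

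None of the 60 named and called genes changed direction under any alternative run, but most of these runs could not have changed it. The compared libraries of the called genes did not overlap, so leaving out 1 of them could not reverse a difference. Leaving out a library of another group left the difference itself unchanged. Of the 60, 42 stayed called with depth, 46 with the pan-leukocyte level, 40 without a filter and 2 with 1 value per code. With 1 compared library left out, 16 to 33 stayed called. Myc, which was not called, differed by 0.12 and by -0.22 to 0.47 with 1 library left out. Absolute depth is unknown, the groups hold 2 libraries each, and the median standard error of 0.22 limits what could be called.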

Other observations

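Genes of amino acid stress had different medians for the antibody with and without paclitaxel, without a call for the difference. Of 14 genes of the ATF4 and unfolded protein list, 1 was called lower and none higher in JQ1 with anti-PD-L1 against JQ1 (median -0.21). That stood beside 2.42% of all genes called lower. In the 3-drug group against JQ1 with paclitaxel, 8 were called higher and none lower (median 0.75), beside 9.09% of all genes called higher. The median difference of effects was -1.0, and no member passed the limma test of it (lowest adjusted p 0.162). Asns, asparagine synthetase, had 37.8 and 38.7 FPKM in JQ1 with anti-PD-L1, against 42.4 and 50.8 FPKM in JQ1, and 65.2, 42.3 and 40 FPKM in the 3-drug group, against 13.8, 15 and 20.3 FPKM in JQ1 with paclitaxel. JQ1 with paclitaxel was the low group, and the vehicle libraries had 33.1 and 48.2 FPKM.

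MHC class II genes showed a similar contrast without a call for the difference. None of 7 was called in JQ1 with anti-PD-L1 against JQ1 (median -0.18). In the 3-drug group against JQ1 with paclitaxel 4 were called higher (median 2.21), beside 9.09% of all genes. The lowest limma adjusted p for the difference of effects was 0.554. H2-Aa, a class II alpha chain, had 19.6 and 11.8 FPKM in JQ1 with anti-PD-L1, against 19.1 and 17.6 FPKM in JQ1, and 103, 233 and 22.4 FPKM in the 3-drug group, against 10.1, 13 and 35.6 FPKM in JQ1 with paclitaxel.

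Proliferins, placental hormones of the prolactin family whose copies share reads, varied between tumours of JQ1 with anti-PD-L1. Prl2c2 had 2.3 and 29.9 FPKM in JQ1 with anti-PD-L1, against 0.844 and 2.15 FPKM in JQ1, and 60.4 and 34.8 FPKM in vehicle (2.07 ± 0.78, limma adjusted p 0.131). Genes of the cytosolic ribosome had differences above 0 in 71 of 76 cases with a median of 0.21 and no call, but their summed level was 22887 and 25072 FPKM in JQ1 with anti-PD-L1, against 17514 and 24812 FPKM in JQ1, so the groups overlapped, and the median was 0.10 after quantile normalization. These genes were described after their values were seen, except where a list names them.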
